A study of Gallus gallus with 2 samples.

Results

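An RNA-seq assembly joins reads that map near each other into transcript models, and some of those models lie where the gene annotation holds no gene. Such models can be parts of genes that the annotation missed, long non-coding RNAs, or transcripts of retroelements. Endogenous retroviruses are the retroelements that carry gag (the inner proteins of the virus particle), protease, reverse transcriptase, RNase H, integrase and envelope genes. LSD1 (KDM1A) demethylates H3K4me2, a histone mark of active and poised regulatory regions, and in mouse cells it is known to repress endogenous retroviruses.

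The models described here were chosen from the count table by position alone. They are the rows that the authors assembled whose span from start to end overlaps no annotated Ensembl chicken gene on the same sequence, on either strand, with rows on W and MT left out. They are called intergenic models below, and each is named by the number in its ID. There were 2680 of them among 9548 assembled models and 26656 listed features. Of the other assembled models, 6442 overlapped an annotated gene on the same strand, 394 overlapped one on the opposite strand only, 29 had no strand and overlapped one, and 3 lay on W or MT.

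Both libraries came from chicken cells labelled as SSCs (spermatogonial stem cells, from which sperm cells form), taken from testes of embryos after 18.5 days of egg incubation, digested with collagenase and trypsin and cultured. The Blank library was from cells for which the labels name no vector, and the shLSD1 library from cells transfected with an interference vector against LSD1. With a single library on each side (1 Blank, 1 shLSD1), there was no spread between replicates to compare a difference with. Intervals given here are 95% Clopper-Pearson intervals, which cover counting error only and compare these 2 libraries, not the treatments.

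The libraries held 8731455 counted reads in Blank and 8245826 in shLSD1. The annotated KDM1A gene, the target of the interference, was listed at 0 reads in both libraries, so the counts give no check of the interference. Of the 11 germ cell markers matched, 4 had at least 20 reads, and the 11 summed to 315 reads in Blank and 336 in shLSD1. Most of these reads lay on CDH1, which was higher in shLSD1, so the sum mainly reflects that gene. PIWIL1, MAEL and PRDM14, each with few reads, were also higher. In contrast, DDX4, DAZL, DMC1, TDRD9, KIT and SYCP3 were lower in shLSD1. The defining germ cell gene DDX4 had 23 and 11 reads and DAZL 8 and 5, while NANOG was at 0. The 5 Sertoli cell markers matched summed to 1690 and 2031 reads, the 4 Leydig cell markers to 715 and 543, and the 7 peritubular and stromal markers to 6703 and 5437, of which LUM alone had 6098 and 4710. Of those 7, COL1A2, DCN and PDGFRA were at 0. A 0 on an annotated gene is no measurement of absent RNA where an assembled model overlaps it, since 61.9% of the 6843 protein-coding genes overlapped by such a model on the same strand were at 0, against 14.2% of the 8665 others. The model over DCN held 9908 reads in Blank and 7199 in shLSD1, the one over COL1A2 54 and 41, and the one over PDGFRA 34 and 26. KDM1A was overlapped by a model that was itself at 0 in both libraries. DDX4, DAZL and NANOG were overlapped by none. Among the other germ cell markers, the model over SYCP3 held 309 reads in Blank and 250 in shLSD1, and the one over CDH1 83 and 71. For the Sertoli cell marker AMH, itself at 0, the model over it held 191 and 153. The part of these cell types in the results below was not tested, and in a bulk library fewer cells of a type and less RNA per cell cannot be told apart.

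Intergenic models were mostly short and often unspliced. Their median transcript length was 832.5 bases, with a range from 200 to 24115, against a median of 4051 for assembled models that overlapped a gene on the same strand and 2010 for annotated protein-coding genes. A transcript shorter than its genomic span, which marks a spliced model, was found for 1087 of them (40.6%), against 98.6% of the same-strand models. Strand was listed as plus for 876, minus for 872 and not given for 932, and all 932 were unspliced. There were 987 models on chromosomes or linkage groups and 1693 on unplaced contigs, and for 1547 the sequence held no annotated gene at all. Chromosome 1 held the most, 175 models beside 2234 annotated genes (7.83 for each 100 genes). Chromosome 25 held 24 models beside 183 annotated genes (13.1 for each 100). This number was higher on chromosome 16 (14.9) and on the linkage groups LGE22C19W28_E50C23 (17.4) and LGE64 (22.2), each with few genes.

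Reads were found on most of these models, and a few models took a large part of them. Of the 2680 models, 330 had no read in either library, 645 had 1 to 19 reads over both libraries, 1705 had at least 20, 937 at least 100 and 173 at least 1000. The share at 0 was 12.3%, against 16.0% of same-strand models, 49.5% of opposite-strand models and 35.3% of annotated protein-coding genes. An assembled model needs reads to be built, and an annotated gene does not, so these shares differ partly by construction. The share with at least 1000 reads was 6.46%, below the 14.7% of same-strand models and the 11.4% of protein-coding genes. Among models with at least 20 reads, the median FPKM (reads divided by transcript length and by library total) was 6.10 in Blank and 6.19 in shLSD1.

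**Figure D1:**
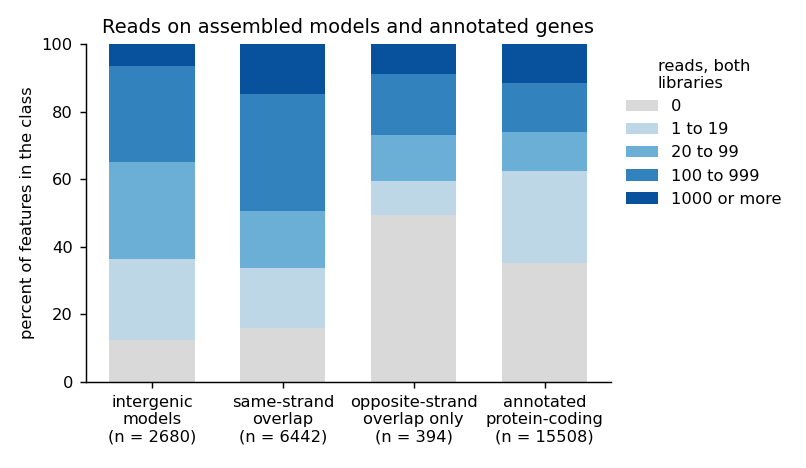
Stacked bars give the percent of features in each of 4 classes by their reads summed over both libraries, from 0 (light grey) to 1000 or more (dark blue). Intergenic models had the lowest share at 0 (12.3%) and the lowest share with 1000 or more reads (6.46%) of the 4 classes.

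The models at 0 were largely those that overlapped another assembled model. Of 479 intergenic models that overlapped another model, 294 (61.4%) had no read. Of the 98 that shared both start and end with another model, 93 had none. Of the 2201 that overlapped no other model, 36 (1.64%) had none. The counting tool is not given in the sources used here, so how it assigned reads that fall in 2 models is not known, and a 0 on an overlapping model is not a measurement of absent RNA. Counts above 0 on overlapping models are uncertain in the same way. Models named below that overlapped another model include 8356, 291, 944, 2056, 1344, 1346 and 1317.

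In Blank, 447854 reads (5.13%, interval 5.11% to 5.14%) fell on intergenic models, and in shLSD1 446917 reads (5.42%, interval 5.40% to 5.44%). The log2 ratio of the summed reads, shLSD1 over Blank and scaled by the library totals, was 0.08 (interval 0.07 to 0.09). The top 8 models held 21.2% of these reads in Blank and 22.2% in shLSD1, and the top 100 held 55.2% and 56.2%.

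The model with the most reads was model 8356, on the plus strand of chromosome 3 from 104829085 to 104835355. The build of these coordinates is not named in the files. It carried a domain of clusterin, a secreted chaperone that Sertoli cells release in large amounts, and had 28868 reads in Blank and 27748 in shLSD1. Its FPKM was 1943 in Blank and 1981 in shLSD1, the highest mean FPKM of the intergenic models with at least 100 reads only after model 13558, and the log2 ratio was 0.03 (interval 0.002 to 0.049). In the RefSeq gene order of assembly GRCg7b, CLU and a further protein-coding gene lie between SCARA3 and SLC35F6, the annotated genes on either side of this model. No identity was assigned to the model from this.

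Model 10717, on chromosome 7 from 22099047 to 22150306, carried an SH2 domain and a phosphotyrosine-binding domain, both of which bind phosphorylated tyrosines. It had 13348 reads in Blank and 12902 in shLSD1 (log2 ratio 0.03, interval -0.001 to 0.069). Its neighbour RUFY4, 229 bases away, had 10 reads in each library and was overlapped by no assembled model on its strand. RefSeq lists 4 long non-coding RNAs and no protein-coding gene wholly between RUFY4 and IGFBP5, the annotated genes on either side. A RefSeq gene that overlaps a flanking gene was not counted. Model 291, an unspliced model on chromosome 1 from 37859885 to 37863231 without a domain, held 10292 reads in Blank and 11237 in shLSD1 (log2 ratio 0.21, interval 0.17 to 0.25). Its annotated neighbours KRR1 and NAP1L1 had 1 read between them, but an assembled model over NAP1L1 held 2071 reads in Blank and 1850 in shLSD1. The RefSeq order places PHLDA1, a gene linked to apoptosis, and a long non-coding RNA between those neighbours.

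Model 9545, on chromosome 5 (minus strand, 17674171 to 17681157), had a slightly lower share of reads in shLSD1. Its reads numbered 10314 in Blank and 9322 in shLSD1 (log2 ratio -0.06, interval -0.10 to -0.02). It lay 495 bases from FBXO3, an F-box gene of the ubiquitin system, which had 7 and 5 reads and was overlapped by an assembled model at 0.

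Model 6233, on the plus strand of chromosome 22 from 2802958 to 2805687, carried an actin domain. It had 5175 reads in Blank and 7010 in shLSD1, or 593 and 850.1 CPM (reads scaled to a common library total), with a log2 ratio of 0.52 (interval 0.47 to 0.57). Its annotated neighbours STAMBP and DGUOK were both at 0, and the assembled models over them had 39 and 31 reads and 0 reads. RefSeq places ACTG2, a smooth muscle actin gene, between them. Smooth muscle actin is made by the peritubular cells that surround the seminiferous cords. The 7 peritubular and stromal markers summed to a log2 ratio of -0.22 (interval -0.27 to -0.17), and without LUM the other 6, nearly all of whose reads lay on DES, had 605 reads in Blank and 727 in shLSD1 (log2 ratio 0.35, interval 0.19 to 0.51). Both sums leave out reads on assembled models over the markers. In Blank and shLSD1 such models held 9908 and 7199 reads over DCN, 85 and 54 over MYH11, 54 and 41 over COL1A2, and 34 and 26 over PDGFRA. The part of these cells in the value of model 6233 was not tested.

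Of the 8 models with the most reads, 3 lay on unplaced contigs. Model 13558, without a domain, had 10089 reads in Blank and 12674 in shLSD1 (log2 ratio 0.41, interval 0.37 to 0.45) and an FPKM of 1817 and 2421, the highest in shLSD1 and in the mean of both libraries. Model 11782 had 7973 and 7931 reads (log2 ratio 0.07, interval 0.03 to 0.12). Model 12558 carried the collagen triple helix repeat, the rod-forming sequence of collagens, and had 8775 and 10480 reads (log2 ratio 0.34, interval 0.30 to 0.38).

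There were 4 intergenic models with a collagen triple helix repeat, all spliced and all on contigs. Besides model 12558 they were model 12707 with 3194 reads in Blank and 3925 in shLSD1, model 12374 with 124 and 190, and model 12150 with 2883 and 2347. The first 3 were higher in shLSD1 and model 12150 was lower, with a log2 ratio of -0.21 (interval -0.29 to -0.14). Model 12150 also carried a C1q domain, the globular head found at the end of short-chain collagens and adiponectin-like proteins. Together the 4 models held 14976 reads in Blank and 16942 in shLSD1. The annotated COL1A2, which encodes a chain of the main fibrillar collagen, was at 0 in both libraries, and the assembled model over it held 54 and 41 reads.

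**Figure D2:**
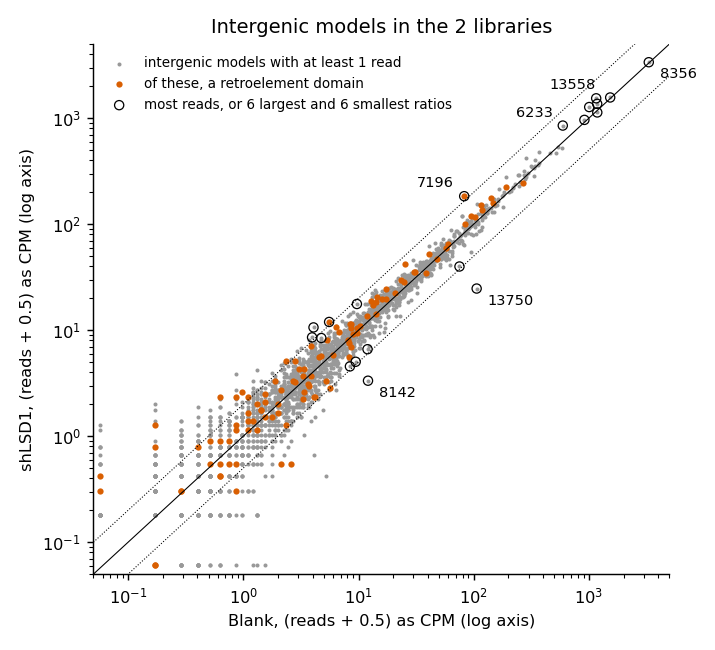
Each point is an intergenic model, with its reads plus 0.5 as CPM in Blank (x) and in shLSD1 (y), on log axes. The solid line marks equal values and the dotted lines 2-fold differences. Model 13750 lies below the lower dotted line and model 7196 above the upper one, whereas model 8356 lies on the line of equal values.

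Few intergenic models differed at least 2-fold between the libraries, and their share was close to that of all features. Among the 1705 models with at least 20 reads, 38 (2.23%) were at least 2-fold higher in shLSD1, beside 2.2% of all 12081 features with at least 20 reads, and 28 (1.64%) were at least 2-fold lower, beside 1.82%. With at least 100 reads, 4 of 937 (0.427%) were higher, beside 0.447% of all 8277 features, and 2 (0.213%) were lower, beside 0.326%. Of the 38 higher models 28 lay on contigs, and of the 28 lower models 22 did. These were 2.70% and 2.12% of the 1036 models on contigs with at least 20 reads. On chromosomes and linkage groups the shares were 1.49% and 0.897% of 669. Most models past 2-fold had few reads, with a median of 33 over both libraries for the higher and 31 for the lower. The counting interval lay wholly beyond 2-fold for 2 of the 38 (models 7196 and 12590) and for 4 of the 28 (models 13750, 8142, 957 and 13114). The share of all features with such an interval is not given here, so these 2 counts have no comparison. Models 12590 and 13114, both on contigs, are named after their values were seen. Model 12590 had 7 reads in Blank and 31 in shLSD1, and model 13114, which carried WD repeats, had 45 and 3.

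The whole distribution was placed slightly toward shLSD1. The median log2 ratio was 0.068 over the 1705 models and -0.011 over all features tested, and 982 of the 1705 (57.6%) lay above 0, against 48.4% of all features. Of the 160 opposite-strand models with at least 20 reads, 90 (56.25%) lay above 0, with a median of 0.03. The share above 0 was therefore not particular to intergenic models. It was 43.9% for same-strand models (median -0.05) and 49.1% for annotated protein-coding genes (median -0.006). At 100 reads or more, the medians of intergenic models and of all features were 0.06 and -0.02. The shift was larger on contigs, where the median was 0.08 over 1036 models, than on chromosomes and linkage groups, where it was 0.03 over 669. No test of this difference was made.

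Model 7196 had the largest log2 ratio among models with at least 200 reads. It lies on chromosome 28 (minus strand, 160979 to 168778), is 7072 bases long and carries a retroviral M domain, a gag p24 domain and a zinc knuckle, which are parts of the gag protein. Its reads numbered 721 in Blank and 1512 in shLSD1, with a log2 ratio of 1.15 (interval 1.02 to 1.28) and an FPKM of 11.6 and 25.8. The nearest annotated gene, 6137 bases away, had no reads. FBN3, a fibrillin gene on the other side, lay 102769 bases away on the opposite strand. It had 5234 and 4963 reads and a log2 ratio of 0.01.

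The other models with the largest log2 ratios had between 104 and 229 reads over both libraries. Model 2699 on chromosome 13 had 35 reads in Blank and 87 in shLSD1 (log2 ratio 1.38, interval 0.81 to 2.01). RefSeq places PROB1, a proline-rich protein gene, between its neighbours DNAJC18 and MZB1. Model 13886, on a contig, carried reverse transcriptase, RNase H and integrase domains and had 48 and 98 reads (log2 ratio 1.10, interval 0.60 to 1.64). Model 6619 on chromosome 25 had 34 and 70 reads, model 12210 on a contig 84 and 145, and model 8606 on chromosome 4, with a rhodopsin-family receptor domain, 41 and 69. The interval of each of these lay above 0, and none of them lay wholly above a log2 ratio of 1. Between the flanks of model 6619, RefSeq lists 7 protein-coding genes.

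Model 13750 had the lowest log2 ratio among models with at least 100 reads. It is an unspliced model of 1244 bases without strand or domain on a contig with no annotated gene, and had 925 Blank reads and 203 shLSD1 reads, with a log2 ratio of -2.10 (interval -2.33 to -1.88). Its FPKM was 84.6 and 19.7, so it was 4.30-fold lower in shLSD1. Model 8142, on chromosome 3 between SPACA1 and AKIRIN2, had 105 and 27 reads (log2 ratio -1.86, interval -2.54 to -1.26). The nearer neighbour, AKIRIN2, had 13 and 5 reads, and the assembled model over it 900 and 794. RefSeq lists a long non-coding RNA and no protein-coding gene wholly between SPACA1 and AKIRIN2.

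Model 1907, a spliced model on chromosome 10 (14097847 to 14111412), held 656 reads in Blank and 328 in shLSD1 (log2 ratio -0.92, interval -1.11 to -0.72). Its neighbour FAM174B, 41961 bases away, had 328 and 264 reads (log2 ratio -0.23), and the assembled model over FAM174B held 1011 and 735. CHD2, a chromatin remodeller 1361 bases away, had 1 read in each, while the assembled model over CHD2 held 2672 and 2751. RefSeq places a long non-coding RNA between these genes. Model 26 on chromosome 1 carried the domain of the calcitonin and CGRP hormone family and had 104 and 54 reads (log2 ratio -0.86, interval -1.37 to -0.38). RefSeq places ADM2, a member of that hormone family, and MIOX between its neighbours SBF1 and LMF2. Model 12761 on a contig had 82 and 41 reads, and model 230 on chromosome 1 had 73 and 37. The intervals of all 6 lay below 0. Wholly between the flanks of model 230, RefSeq lists 2 long non-coding RNAs and no protein-coding gene.

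A small group of models lay next to ribosomal RNA genes. There were 11 intergenic models whose nearest annotated gene was an rRNA gene, and 7 of them were at 0, each overlapping another model. On chromosome 1, model 957 had 35 reads in Blank and 5 in shLSD1 (log2 ratio -2.61, interval -4.43 to -1.37), model 949 had 184 and 111 (log2 ratio -0.64, interval wholly below 0) and model 960 had 33 and 22 (log2 ratio -0.49, interval -1.35 to 0.32). The annotated 5.8S rRNA gene 1509 bases from model 949 had 691 and 355 reads (log2 ratio -0.88, interval -1.07 to -0.69). All 29 annotated rRNA genes summed to 717 and 387, so that sum is nearly all this gene. It was not the gene nearest to model 957, which lay 843 bases from another rRNA gene, nor to model 960. On chromosome 9, model 11304 went the other way, with 44 and 65 reads (log2 ratio 0.64, interval 0.07 to 1.23). The part of rRNA left in each library in these values was not tested. These models were singled out after their values had been seen.

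Protein domains were listed for 686 of the intergenic models (25.6%), against 90.0% of assembled models overlapping a gene on the same strand and 21.6% of those on the opposite strand. Among models with at least 20 reads, the median FPKM in Blank was 11.2 with a domain and 4.88 without one. It was 14.6 for models with a domain but none of a retroelement, and 3.85 for models with a retroelement domain. The domains were grouped after the values had been seen, so the groups are described without a test. Groups were set by Pfam (protein family) entries, which 604 of the 686 models had. A model listed only with a superfamily entry is in no group and counts as having no retroelement domain. The largest group was that of retroelements. A retroelement domain was found in 128 intergenic models, which were 85.3% of the 150 assembled models that carried one. Of the other 22, 16 had at least 20 reads, and 13 of these had a log2 ratio above 0, with a median of 0.28. The summed reads of the 22 had a log2 ratio of 0.12 (interval 0.08 to 0.16).

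Of these 128 models, 87 had at least 20 reads, 22 had 1 to 19, and 19 had none, and all 19 overlapped another model. Among the 87, 60 (69.0%) had a log2 ratio above 0, against 57.6% of all intergenic models with at least 20 reads, and the median log2 ratio was 0.23 against 0.07. The counting interval lay above 0 for 26, below 0 for 4 and held 0 for 57. The same count over all intergenic models or all features is not given here. These numbers therefore cannot be called particular to retroelement models. At least 2-fold higher were 7 models and at least 2-fold lower 2, which are 8.05% and 2.30% beside the 2.2% and 1.82% of all features. Of the 7, only models 7196 and 13886 had at least 100 reads, and only model 7196 had an interval wholly beyond 2-fold. The interval of model 13197 held 0. The 2 lower models, 13130 and 13924, had 26 and 22 reads over both libraries. With at least 100 reads, 36 of 46 (78.3%) lay above 0, with a median of 0.21. Of all 937 intergenic models with that many reads, 564 (60.2%) lay above 0, with a median of 0.06. Summed over all 128, the reads were 18442 in Blank and 20571 in shLSD1 (log2 ratio 0.24, interval 0.21 to 0.27). Without model 7196 they were 17633 and 18955 over the models with at least 20 reads (log2 ratio 0.19, interval 0.16 to 0.22), and the median was 0.22. Retroelements are present in near-identical copies, so reads can be shared between copies and each model's count is uncertain.

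Models with a gag domain are described first. There were 40 with a gag domain, of which 27 had at least 20 reads, and 23 of the 27 lay above 0. Their sum was 6763 reads in Blank and 8423 in shLSD1 (log2 ratio 0.40, interval 0.35 to 0.45). Without model 7196 it was 6042 and 6911 (log2 ratio 0.28, interval 0.23 to 0.33), near the value of the envelope models below, and 22 of the remaining 26 lay above 0. The gag models with more reads than model 7196 were model 5209 on chromosome 2 with 1243 reads in Blank and 1454 in shLSD1, model 11650 on a contig with 1273 and 1317, and model 9867 on chromosome 5 with 1015 and 1250. Model 944 on chromosome 1, with fewer, had 821 and 976. All 4 had an interval above 0, with log2 ratios from 0.13 to 0.38.

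Models with a reverse transcriptase domain, the enzyme that copies RNA into DNA, held more reads than the gag models in Blank and had a lower log2 ratio. Of the 35, 25 had at least 20 reads and 17 of these lay above 0, and the sum was 8080 reads in Blank and 8228 in shLSD1 (log2 ratio 0.11, interval 0.06 to 0.15). In 28 of them the reverse transcriptase was the only retroelement domain. Their summed reads had a log2 ratio of 0.09 (interval 0.04 to 0.14), against 0.32 (interval 0.29 to 0.36) for the other 100 retroelement models. The summed values of these 2 groups were unlike, but their medians were closer. Among models with at least 20 reads, the median was 0.19 for the 21 with reverse transcriptase alone and 0.29 for the 66 others. Above 0 lay 66.7% and 69.7% of them. A sum is weighted toward models with many reads. Model 1602, described below, is in the first group, and model 7196, with 721 reads in Blank and 1512 in shLSD1, in the other. Neither sum was computed without these models. Among the 35, model 1602 on chromosome 1 had the most reads, 2341 in Blank and 1993 in shLSD1. Its log2 ratio was -0.15 (interval -0.24 to -0.06), opposite to the sum of the 35. Model 2056 on chromosome 11 had 1674 and 1849 (log2 ratio 0.23, interval 0.13 to 0.32).

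Envelope domains, the surface proteins of the virus, were found in 15 models. Of the 12 with at least 20 reads, 8 lay above 0, and the sum was 1989 reads in Blank and 2247 in shLSD1 (log2 ratio 0.26, interval 0.17 to 0.35). Model 14604 on Z had 727 and 833 reads, and model 4643 on chromosome 2 had 219 and 348 (log2 ratio 0.75, interval 0.50 to 1.00). Model 11942, on a contig, carried the avian retrovirus gp85 domain and had 420 and 382 (interval -0.26 to 0.15, which held 0). Integrase domains were found in 26 models, with 965 reads in Blank and 1050 in shLSD1 in all, and 9 of the 17 with at least 20 reads lay above 0. Protease or dUTPase domains were found in 17 models, with 2051 and 2155 reads. RNase H domains were found in 13 models, with 453 and 486 reads (log2 ratio 0.18, interval -0.004 to 0.37). Of the 6 with at least 20 reads, 2 lay above 0, with a median of -0.35, the opposite sign to their sum.

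**Figure D3:**
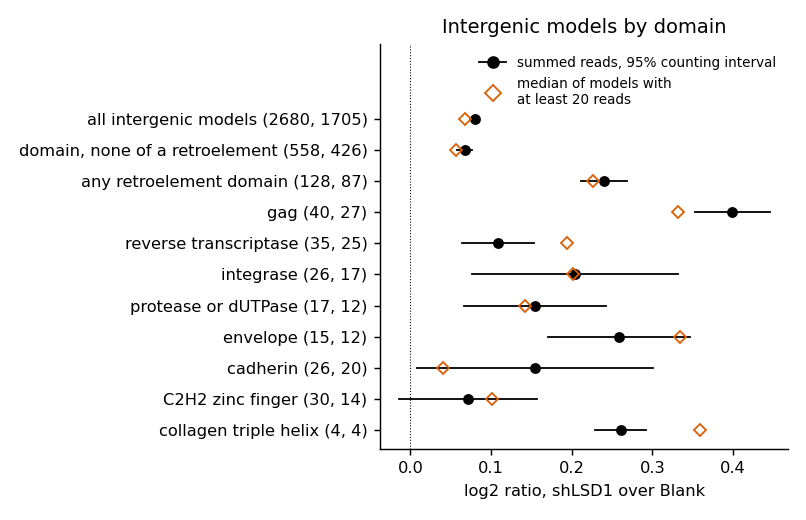
Filled circles give the log2 ratio (shLSD1 over Blank) of the summed reads of intergenic models by domain, lines the 95% counting interval, and open diamonds the median log2 ratio of the models with at least 20 reads. Numbers in brackets are all models and those with at least 20 reads. The gag group stands at 0.40 (0.28 without model 7196), above all retroelement models (0.24) and all intergenic models (0.08).

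Retroelement models were found on chromosomes and contigs alike. On chromosomes and linkage groups there were 61, of which 35 had at least 20 reads and 26 of these lay above 0 (median 0.23). The 634 other models there with at least 20 reads had a median of 0.02, and 333 of them (52.5%) lay above 0. On contigs, 34 of 52 retroelement models lay above 0 (median 0.21), and of the 984 others 589 (59.9%) did (median 0.08).

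**Figure D4:**
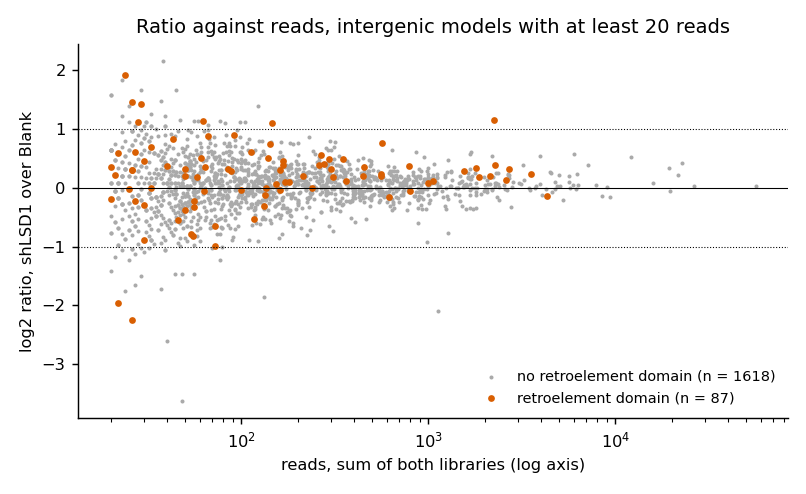
The log2 ratio (shLSD1 over Blank) of each intergenic model with at least 20 reads is plotted against its reads summed over both libraries on a log axis, with retroelement models in orange and 2-fold differences as dotted lines. The spread narrows as reads rise, and the orange point near 1.15 at 2233 reads is model 7196.

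Domains outside the retroelement groups varied by group. The 558 models with a domain but none of a retroelement summed to 208451 reads in Blank and 206221 in shLSD1 (log2 ratio 0.07, interval 0.06 to 0.08), with a median of 0.06. They were not all shown to be host genes. Model 14072 on Z, among them, was listed only with a superfamily entry that also occurs in envelope models. In 26 models a cadherin domain was found, the repeat of cell adhesion proteins. Of these, 2 were spliced, and their reads were low, 749 in Blank and 787 in shLSD1. C2H2 zinc fingers, which bind DNA, were found in 30 models with 2209 and 2192 reads in all, and 10 of the 30 were at 0. The groups with higher values were small. The collagen models described above had a log2 ratio of summed reads of 0.26 (interval 0.23 to 0.29). The 5 models with a seven-transmembrane receptor domain had 821 reads in Blank and 922 in shLSD1 (log2 ratio 0.25, interval 0.11 to 0.39). Of 6 models with a plectin repeat, found in proteins that link intermediate filaments, 4 were at 0 and the others summed to 35 and 70 reads (log2 ratio 1.07, interval 0.48 to 1.71). The 4 with a myosin head, the motor part of myosin, had 1266 and 1143 (log2 ratio -0.06, interval -0.18 to 0.05).

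Distance to annotated genes was known for the 1133 models on a sequence with such a gene. Its median was 2171 bases. There were 396 models under 1 kb from the nearest gene, 337 from 1 to 5 kb, 206 from 5 to 20 kb, 132 from 20 to 100 kb and 62 farther than 100 kb. The median log2 ratio was -0.002 for the 288 with at least 20 reads under 1 kb, -0.01 for 220 from 1 to 5 kb, 0.06 for 142 from 5 to 20 kb, 0.08 for 80 from 20 to 100 kb and 0.22 for 33 beyond 100 kb. Of the 33, 14 carried a retroelement domain (median 0.28) and 19 did not (median 0.18).

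The models farthest from any annotated gene were examined by name. Model 1344, 561771 bases from the nearest gene on chromosome 1, carried gag domains and had 89 reads in Blank and 90 in shLSD1. Model 1346 on the same chromosome had 121 and 195 (log2 ratio 0.77, interval 0.44 to 1.11). Model 5616 on chromosome 2 carried reverse transcriptase, RNase H and integrase domains and had 267 and 290, and model 1317 on chromosome 1 had 45 and 59. Of the 4, only model 1346 had an interval that left out 0. Models 1344, 1346 and 1317 overlapped another assembled model, so their counts are uncertain beyond the interval.

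The longest spans belonged to spliced models of low or moderate count. Model 1083 spanned 297045 bases of chromosome 1 and ended 184 bases from DMD, the dystrophin gene. It carried a calponin homology domain and a spectrin repeat, the domain types of dystrophin and other actin-binding proteins, and had 88 reads in Blank and 99 in shLSD1, while the annotated DMD had 6 and 1 and the assembled model over it none. Model 4895 spanned 209792 bases of chromosome 2, carried a ubiquitin-conjugating enzyme domain and had 476 and 593 reads (log2 ratio 0.40, interval 0.22 to 0.58). Model 698 spanned 146313 bases of chromosome 1 and had 233 and 153 reads (log2 ratio -0.52, interval -0.83 to -0.22).

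Intergenic models were compared with their nearest annotated gene in the 182 pairs in which both had at least 100 reads. These pairs held 173 distinct genes. The FPKM of the model was below that of the gene in 125 pairs (68.7%), with a median ratio of 0.576. Across the pairs the log2 ratios of model and gene had a Pearson r of 0.24 and a Spearman rho of 0.28. Under 1 kb apart, in 87 pairs, they were 0.41 and 0.44, and from 1 to 5 kb, in 55 pairs, 0.16 and 0.12. From 5 to 20 kb, in 26 pairs, they were 0.28 and 0.37, and from 20 to 100 kb, in 12 pairs, -0.01 and 0.06, so the values did not fall steadily with distance. These correlations are across pairs within the same 2 libraries, which are not independent replicates. For 37 models on the same strand and 3′ of the gene within 5 kb, r was 0.32, and for 27 on the same strand and 5′ it was -0.04. On the opposite strand within 5 kb, r was 0.26 for 24 models 3′ and 0.30 for 34 models 5′ of the gene, and for 20 models without strand it was 0.52. Assembled models over the annotated genes were not counted in these pairs.

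**Figure D5:**
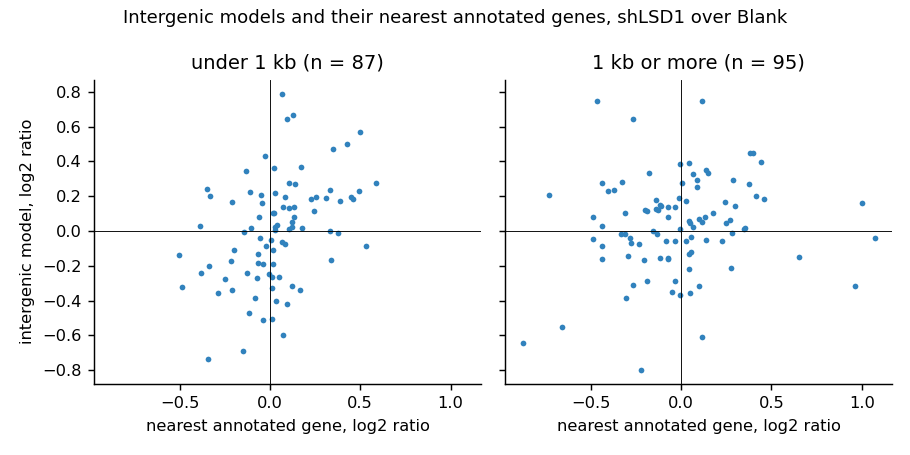
Each point is a pair of an intergenic model and its nearest annotated gene, both with at least 100 reads, with the log2 ratio (shLSD1 over Blank) of the gene on x and of the model on y. On the left are 87 pairs under 1 kb apart (Pearson r 0.41), which spread along the diagonal more than the pairs at 1 kb or more on the right.

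Models that lay in a row within 10 kb of each other were joined into chains, and the 3 chains with the most models at 20 reads or more were described. On chromosome 5, from 17656442 to 17681157, 5 models formed a chain with 10793 reads in Blank and 9847 in shLSD1, nearly all on model 9545. In this chain model 9543, with a reverse transcriptase domain, had 263 and 292 reads, model 9544, with a dUTPase domain, had 216 and 233, and both overlapping minus-strand models were at 0. On a contig, models 13534, 13537 and 13540 had 1453 and 1606 reads in all (log2 ratio 0.23, interval 0.12 to 0.33). On chromosome 14, from 15112799 to 15131126, 5 models had 540 and 565 reads. Of the models with reads on chromosomes 5 and 14, model 9545 alone had an interval that left out 0.

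RefSeq genes between the flanking genes were sought for models flanked by annotated genes on both sides. There were 986 such models. Both flanking genes were matched by symbol for 544. For 529 of these, both lay on the same chromosome in the newer assembly with at most 10 RefSeq genes between them. Pairs of flanks with more genes between them were left out, and the order of the flanks was not checked. A RefSeq gene counted only if it lay wholly between the flanks, so one that overlapped a flank was missed. A RefSeq gene lay between the flanks for 299 of the 529 (56.5%), a protein-coding one for 199 and a long non-coding one for 146, and 230 had none. Models with a RefSeq gene between the flanks more often carried a domain (93 of 299, 31.1%) than those without (25 of 230, 10.9%), and 51.5% against 28.3% were spliced. The share with at least 20 reads was 71.2% and 68.7%.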

How the data were processed

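RNA-seq libraries were made with the Illumina TruSeq kit from 1 µg of total RNA of chicken SSCs, 1 Blank and 1 shLSD1. Read counts without normalization and FPKM values were deposited by the authors for annotated genes and models they assembled. The assembler, counting tool and chicken genome build are not given in the sources used here. The submitters' processing notes list the aligner Bowtie 0.12.2 and 2 mouse builds, which cannot be the build of these chicken coordinates. In the deposited tables, 4 columns of values could not be tied to any sample label and were left out. The authors' comparison table (fold changes and p-values) was not used.

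Intergenic models, lists and domain groups were chosen with earlier results of these data known. Log2 ratios are of counts over the listed totals with a prior count of 0.5 scaled to library size, for models with at least 20 reads, and 2-fold was the threshold. With 1 library per group no test across features was run, and PCR copies count as separate reads. Models named are the 8 with most reads; among those with at least 100 reads the 6 largest and 6 smallest log2 ratios, the 4 highest FPKM, the 3 longest spans and the 4 farthest from genes; and the 3 chains. Collagen, rRNA-neighbouring and other retroelement models were added after their values were seen. Domain names are those in the deposited annotation. Of 13698 annotated symbols, 11451 matched the RefSeq table of GRCg7b, used for names and order only. Calculations were tested on simulated data. Alternatives were TMM (edgeR 4.0.16), DESeq2 1.42.0 size factors, upper-quartile scaling, totals without the 20 most abundant features, a prior count of 5, FPKM ratios, other filters and other definitions of the set. Scaling factors were computed in R 4.3.3, tables in Python 3.11.15 with pandas 2.3.3, numpy 2.4.6 and scipy 1.17.1, and plots with matplotlib 3.10.9.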

Additional observations from a re-analysis of the deposited data

How the results depend on the processing

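No paired analysis was possible because Blank and shLSD1 have 1 library each. No replicate can be left out, and the values cannot be set against a spread between samples. Depth limits the 645 models with 1 to 19 reads, and unplaced contigs and near-identical copies leave reads uncertain.

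For the 28 named models, 194 of 196 alternative values stayed within the counting interval and none changed sign with an interval that left out 0. The exceptions were model 8356 (0.05 under upper-quartile scaling) and model 8142 (-1.21 from FPKM with a pseudocount of 1).

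The counts of models at least 2-fold higher and lower, 38 and 28, depended on the filter and threshold. They were 15 and 14 with a prior count of 5, 8 and 11 from FPKM with a pseudocount of 1, 197 and 151 with no filter on low counts, 4 and 2 with at least 100 reads, 1 and 1 with at least 200 reads, and 158 and 125 at a threshold of 1.5-fold. Spliced models gave 13 and 5, and models on chromosomes and linkage groups, an alternative chosen after seeing the data, 10 and 6.

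The log2 ratio of the summed reads was 0.0910 with TMM, 0.0671 with DESeq2 size factors and 0.106 with upper-quartile scaling. It was 0.0984 at least 1 kb and 0.104 at least 10 kb from an annotated gene, 0.0690 when models overlapping genes on the opposite strand were let in, 0.0586 on chromosomes and linkage groups, and 0.0722 without retroelement domains. The median log2 ratio was 0.0939 with upper-quartile scaling, 0.0815 at least 10 kb from a gene and 0.0299 on chromosomes and linkage groups. It lay 0.0787 to 0.0788 above the median of all features under each of the scalings. A scaling moves all features by nearly the same amount, so this distance could hardly change and is no check of the shift. The number of retroelement models above 0 was 60 to 63 under each scaling, with medians from 0.21 to 0.25.

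The shares of reads in Blank and shLSD1 were 3.61% and 3.87% at least 1 kb from a gene, 2.31% and 2.48% at least 10 kb, 5.89% and 6.18% with overlap on the opposite strand let in, 3.65% and 3.87% for spliced models, 2.85% and 2.97% on chromosomes and linkage groups, 4.33% and 4.58% for models overlapping no other model, 4.92% and 5.17% without retroelement domains, 4.80% and 5.08% without the most abundant model, and 7.98% and 8.46% as a share of summed FPKM. The number of models was 1087 for spliced models and 987 on chromosomes, and with at least 20 reads it was 1108 at least 10 kb from a gene, 832 for spliced models and 669 on chromosomes.

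The other alternatives chosen after seeing the data left out single features. The log2 ratio of summed reads was 0.28 in place of 0.40 for gag models and 0.19 in place of 0.24 for retroelement models without model 7196. The summed annotated counts of the peritubular and stromal markers reversed from -0.22 to 0.35 without LUM, where nearly all remaining reads lay on DES. The sign of that sum of annotated counts therefore rests on 1 gene. It leaves out the assembled models over the markers, of which the one over DCN held 9908 reads in Blank and 7199 in shLSD1.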
